A study of Mus musculus with 12 samples.

Results

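NR5A1(+) cells of XY fetal mouse gonads cultured with deferoxamine (Dfo), a drug that binds iron, were compared with the same cells of gonads cultured without it. The samples were chosen by their titles and came to 6 of the 12 libraries of the series, 3 Dfo XY and 3 control XY. Genes entered where at least 2 of these 6 libraries had 1 TPM or more, which kept 14556 of 24411 gene symbols. TPM is a transcript abundance corrected for transcript length and scaled to the same total in every library.

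Both groups were gonads of E10.8 embryos, kept on filters together with aorta, mesonephros and mesenchyme, in DMEM with 10% horse serum for 19.2 h. The Dfo XY gonads had 150 µM Dfo in this medium. Both carried the genotype Nr5a1-hCD271, in which a surface protein marks cells that use the Nr5a1 gene, and RNA was taken from the NR5A1(+) cells alone. The other 6 libraries, 2 each of cultured control XX, E11.5 XY and E11.5 XX, entered only as part of the shared estimate of spread. No label says that replicates came from separate embryos or litters, so the p-values measure only the spread between these samples, which may be technical.

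Iron is a cofactor of a large class of dioxygenases. Some of these, the EGLN prolyl hydroxylases, mark the hypoxia-inducible factor (HIF) for destruction, so that HIF acts on its target genes when iron or oxygen is short. Others, the JmjC histone demethylases and TET enzymes, remove methyl groups from chromatin. In the mouse XY gonad the JmjC enzyme KDM3A removes repressive histone methylation at Sry, the Y-linked gene that starts testis development.

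The libraries held the defining RNAs of the labelled cells. Nr5a1 itself stood at 78.9, 86.5 and 85.0 TPM in Dfo XY and 97.2, 104 and 127 TPM in control XY, and Wt1 and Gata4, further genes of gonadal somatic cells, at 93.7 to 154 TPM in Dfo XY and 144 to 191 TPM in control XY. Of 16 germ cell markers, Nanog, Ddx4, Dazl and Prdm14 did not reach the filter, but 12 did, among them Pou5f1 and Dppa3. Red cell RNA was present, however, with Hba-a1 at 1435, 1039 and 347 TPM in Dfo XY and 939, 1056 and 126 TPM in control XY. Dfo XY replicates 1 and 2 held Xist, the RNA of the inactive X, at 13.6 and 24.6 TPM, while Dfo XY replicate 3 had 0.28 TPM and the control XY libraries 0.01 to 0.18 TPM. The XX libraries of the series had 124 to 175 TPM. Fits without Dfo XY replicates 1 and 2, given below, rest on Dfo XY replicate 3 alone. Where a call ends in such a fit, fewer libraries and the absence of Xist cannot be told apart. The sum of Y-linked genes lay between 70.2 and 94.6 TPM in Dfo XY and between 80.8 and 112.75 TPM in control XY. Replicates 1 and 2 of each group resembled each other more than replicate 3, with a median absolute log2 difference of 0.0967 in Dfo XY and 0.0818 in control XY, against 0.188 to 0.202 for pairs with replicate 3. Rpph1, the RNA of RNase P, took 19.5 to 23.6% of all TPM in Dfo XY and 15.3 to 20.3% in control XY. TPM keeps no sequencing depth, so the depth is unknown.

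The genes that mark the response were separated completely between the groups. Ankrd37, a HIF target that codes for an ankyrin repeat protein, stood at 172, 186 and 150.3 TPM in Dfo XY, against 5.50, 2.74 and 10.77 TPM in control XY. The glucose transporter gene Slc2a1 had 612, 631 and 389 TPM in Dfo XY and 43.6, 34.8 and 46.8 TPM in control XY. The vascular growth factor gene Vegfa had 697, 714 and 618 TPM in Dfo XY and 121, 107 and 139 TPM in control XY. Every Dfo library lay above every control library for these genes, with Dfo XY replicate 3 the lowest of its group each time. The log2 changes, Dfo XY minus control XY on log2(TPM + 1) and with the SE of limma's moderated test, were 4.69 ± 0.36 for Ankrd37, 3.65 ± 0.18 for Slc2a1 and 2.46 ± 0.10 for Vegfa (limma, adjusted p = 4.07e-06, 1.57e-07 and 7.03e-08).

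Tfrc, the receptor that takes up transferrin-bound iron, had 231, 241 and 276 TPM in Dfo XY and 60.2, 56.9 and 84.4 TPM in control XY. Kdm3a, the demethylase named above and itself a HIF target, had 290.4, 304 and 301 TPM in Dfo XY and 92.9, 87.7 and 104 TPM in control XY. Sry (chromosome Y, 2662471 to 2663658, mm10) had 4.23, 2.40 and 4.18 TPM in Dfo XY and 19.5, 16.4 and 45.6 TPM in control XY. Sry was the one of these genes that was lower, again with no overlap, and control XY replicate 3 stood far above the other controls. The log2 changes were 1.89 ± 0.14 for Tfrc, 1.65 ± 0.10 for Kdm3a and -2.50 ± 0.33 for Sry (limma, adjusted p = 2.49e-06, 6.61e-07 and 0.000288). In bulk RNA, fewer cells that use a gene and less RNA per cell cannot be told apart. Without Dfo XY replicates 1 and 2, which held Xist, the changes of Tfrc, Kdm3a and Sry were 2.05 ± 0.21, 1.66 ± 0.15 and -2.30 ± 0.49, the last with an adjusted p of 0.0219 in limma.

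**Figure D1:**
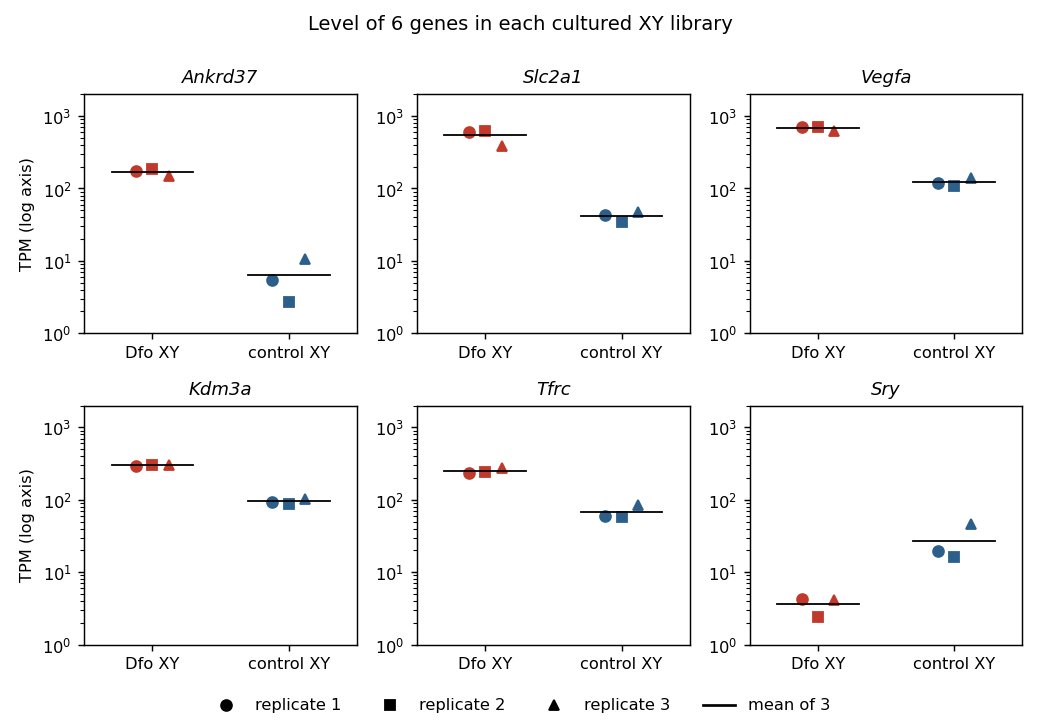
TPM of 6 genes on a log axis in each of the 3 Dfo XY (red, left) and 3 control XY (blue, right) libraries, with the mean of each group as a line and the replicate number as the symbol. The groups do not overlap in any panel. Sry is the one gene lower in Dfo XY, at 2.40 to 4.23 TPM, against 16.4 to 45.6 TPM in control XY.

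Over all genes, 2616 of 14556 (18.0%) were called at an adjusted p below 0.05. Of these, 828 were higher in Dfo XY (5.69% of all) and 1788 lower (12.3%). At least 2-fold changes were nearer to balance, with 298 higher (2.05%) and 371 lower (2.55%). The groups did not overlap for 1843 genes higher (12.7%) and 4145 genes lower (28.5%). The split depended on the scaling. The median log2 change of all genes was -0.16, and with median-of-ratios scaling it was -0.03 and 1576 genes were higher and 1069 lower, so that 59.6% of calls were higher in place of 31.7%. With quantile normalization 51.4% of calls were higher, without Rpph1 43.5% and without the 50 most abundant genes 50.2%. Under all 4 of these scalings 826 of the higher calls and 980 of the lower calls were kept. A gene that a scaling left out is counted as kept there. With the replicate number as a block the calls came to 4339, and without Dfo XY replicates 1 and 2 to 925. In all, 276 higher and 383 lower genes were called under each of the 18 alternatives tried, counted in the same way. The genes named below kept their calls in all alternatives that held them, unless stated.

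**Figure D2:**
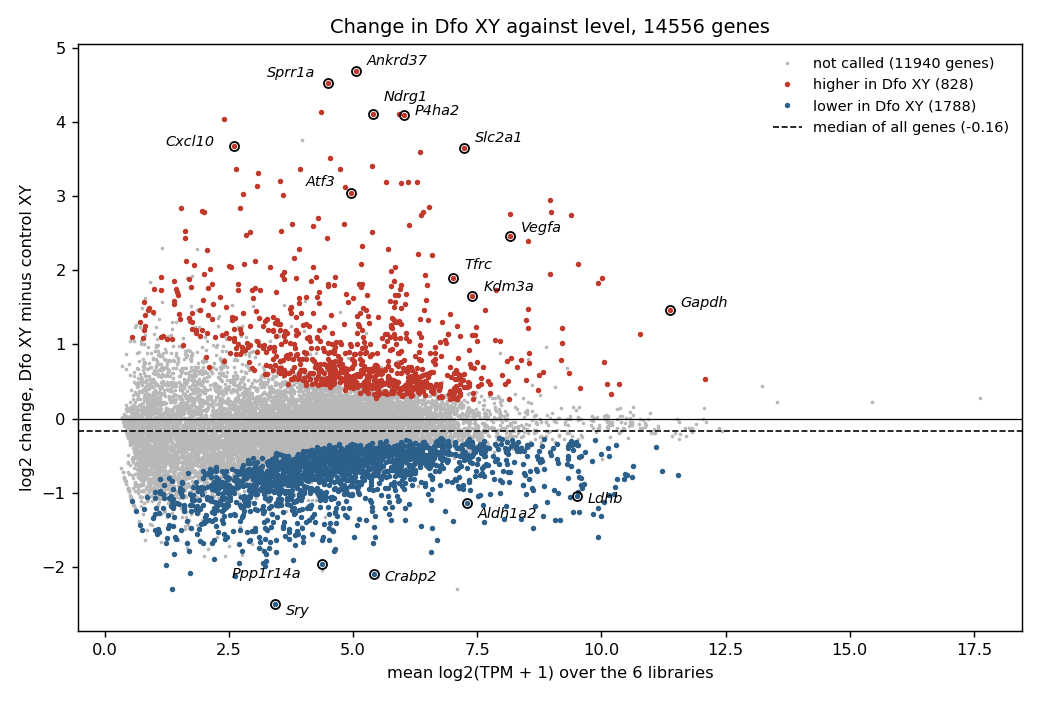
Log2 change (Dfo XY minus control XY) against the mean log2(TPM + 1) of the 6 libraries for 14556 genes. Genes called higher are red (828) and genes called lower blue (1788), open circles mark named genes such as Ankrd37 at 4.69 and Crabp2 at -2.09, and the dashed line is the median of all genes, -0.16.

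The genes of HIF and of the enzymes that sense oxygen were changed in part. Called higher were 30.8% and lower 15.4%, against 5.69% and 12.3% of all genes. The EGLN hydroxylases, the brakes of HIF, differed among themselves, and Egln1 and Egln3 are HIF targets as well. Egln3 had 89.1, 88.6 and 57.9 TPM in Dfo XY and 4.58, 4.14 and 10.2 TPM in control XY, a rise of 3.51 ± 0.28. Egln1, the main oxygen sensor in most tissues, had 189, 204 and 219 TPM in Dfo XY and 42.8, 36.1 and 54.0 TPM in control XY, a rise of 2.20 ± 0.13. Both were higher in every Dfo library, whereas Egln2 was not called at -0.18 ± 0.13. Hif1a, the gene of the regulated subunit, had 128, 135 and 139 TPM in Dfo XY and 149.9, 155 and 156 TPM in control XY, which was not called (-0.19 ± 0.11; limma, adjusted p = 0.228), but was called lower with the replicate block (adjusted p = 0.0358). Epas1, which codes for HIF-2α, was not called either, at 0.41 ± 0.17 (limma, adjusted p = 0.108), but was called higher with median-of-ratios scaling (0.0396) and quantile normalization (0.0347). The partner gene Arnt was at 0.21 ± 0.11 and not called, while Arnt2, a related partner, fell by 0.88 ± 0.14. Arnt was called higher with median-of-ratios scaling (limma, adjusted p = 0.0309) and without the 50 most abundant genes (0.0495). In all, 4 of 13 genes of this list rose and 2 fell, with a median of 0.22, and 2 rose and 1 fell without Dfo XY replicates 1 and 2, while 7 rose with median-of-ratios scaling.

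HIF target genes rose almost throughout the list. Of 45 measured, 37 rose (82.2%, against 5.69% of all genes) and 1 fell, and the median was 2.28, against -0.16 over all genes. Summed over the list, they took 11539 to 11810 TPM in the Dfo XY libraries and 2441 to 2887 TPM in the control XY libraries. The 37 include Car9, which was kept by the filter through Dfo XY alone and so carries no weight as support. Car9 had 3.84, 3.85 and 2.31 TPM in Dfo XY and at most 0.47 TPM in control XY, and some alternatives ended its call. P4ha2, a prolyl hydroxylase of collagen, had 287, 247 and 268 TPM in Dfo XY and 13.4, 11.3 and 21.2 TPM in control XY. Bnip3, which marks mitochondria for removal, had 265, 296 and 289 TPM in Dfo XY and 22.7, 16.8 and 29.7 TPM in control XY. These were rises of 4.09 ± 0.20 and 3.60 ± 0.19 (limma, adjusted p = 1.57e-07 and 1.68e-07), and the 3 Dfo libraries were much alike. Ndrg1, a growth-arrest and stress gene, had 219.7, 241 and 98.5 TPM in Dfo XY and 7.27, 8.37 and 12.4 TPM in control XY, and Ero1l, the oxidase that makes disulfide bonds in the endoplasmic reticulum, had 306, 293 and 177 TPM in Dfo XY and 11.8, 14.0 and 15.6 TPM in control XY. Both rose about as much (4.11 ± 0.31 and 4.10 ± 0.19), but with Dfo XY replicate 3 well below the other Dfo libraries.

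Further targets rose to a lesser degree. Adm, the vasodilator peptide adrenomedullin, rose by 2.08 ± 0.24, Ddit4, an inhibitor of the growth kinase mTOR, by 2.28 ± 0.22, and Bnip3l, a relative of Bnip3, by 1.41 ± 0.09. The exception was Angptl4, a lipase inhibitor that HIF and PPAR factors induce, with 14.7, 12.9 and 23.7 TPM in Dfo XY and 35.7, 32.6 and 45.6 TPM in control XY. It fell by 1.14 ± 0.21, with no overlap, but the call ended without Dfo XY replicates 1 and 2 (limma, adjusted p = 0.163). The targets that were not called were Pfkfb4, Fam13a, Rcor2, Car12, Pgm1, Edn1 and Lox, at changes of -0.42 to 0.56, of which Rcor2 was called lower with the replicate block (limma, adjusted p = 0.0286).

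HIF binds its response element through core letters such as ACGTG. Promoters are shown for the 5 largest rises among the targets whose RefSeq promoter held ACGTG, which leaves out Ndrg1 and Ero1l. That each holds a match was therefore fixed by the choice. Each run below is 250 bases before to 50 bases after the first listed start of the gene in RefSeq (GRCm38.p6). The runs are read in the gene's direction, and capitals mark ACGTG on either strand.
Ankrd37, chr8:45999801-46000100, minus strand: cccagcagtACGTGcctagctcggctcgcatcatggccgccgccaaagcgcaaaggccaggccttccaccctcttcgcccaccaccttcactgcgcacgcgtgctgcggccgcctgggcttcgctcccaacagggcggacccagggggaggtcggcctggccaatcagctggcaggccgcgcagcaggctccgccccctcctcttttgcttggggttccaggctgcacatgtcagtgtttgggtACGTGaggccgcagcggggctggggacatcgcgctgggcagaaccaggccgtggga
P4ha2, chr11:54100674-54100973, plus strand: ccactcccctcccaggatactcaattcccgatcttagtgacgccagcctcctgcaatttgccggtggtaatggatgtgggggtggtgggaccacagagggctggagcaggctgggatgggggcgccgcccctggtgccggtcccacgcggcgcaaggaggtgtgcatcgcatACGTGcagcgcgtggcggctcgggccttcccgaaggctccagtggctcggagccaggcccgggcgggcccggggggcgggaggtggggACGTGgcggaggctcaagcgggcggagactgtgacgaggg
Slc2a1, chr4:119108495-119108794, plus strand: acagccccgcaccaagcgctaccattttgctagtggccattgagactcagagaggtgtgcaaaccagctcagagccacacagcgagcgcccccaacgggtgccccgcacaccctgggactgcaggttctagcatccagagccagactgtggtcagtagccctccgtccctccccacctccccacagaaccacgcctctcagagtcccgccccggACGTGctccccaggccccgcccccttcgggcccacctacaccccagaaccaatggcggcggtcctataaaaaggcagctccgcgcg
Bnip3, chr7:138909457-138909756, minus strand: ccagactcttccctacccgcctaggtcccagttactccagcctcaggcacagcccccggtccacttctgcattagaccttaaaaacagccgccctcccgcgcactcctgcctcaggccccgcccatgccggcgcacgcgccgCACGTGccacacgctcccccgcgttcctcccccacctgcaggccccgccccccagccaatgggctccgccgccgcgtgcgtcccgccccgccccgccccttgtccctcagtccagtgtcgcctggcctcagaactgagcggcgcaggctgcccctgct
Egln3, chr12:54203825-54204124, minus strand: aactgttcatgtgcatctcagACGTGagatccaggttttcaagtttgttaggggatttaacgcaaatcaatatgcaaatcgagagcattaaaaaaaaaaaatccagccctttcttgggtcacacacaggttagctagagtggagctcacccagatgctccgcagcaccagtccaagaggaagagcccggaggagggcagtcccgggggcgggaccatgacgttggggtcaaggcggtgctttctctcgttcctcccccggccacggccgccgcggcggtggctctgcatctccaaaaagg

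In Ankrd37 the matches began 241 and 6 bases before the start, and in P4ha2 78 bases before and 10 bases after it. Slc2a1 had 1 match, 36 bases before the start, and Egln3 1, 229 bases before it. In Bnip3 the letters CACGTG hold ACGTG on each strand, so the capitals cover 2 overlapping matches at 108 and 107 bases before the start. Of the 35 HIF targets matched to a RefSeq promoter, 21 (60.0%) held ACGTG. Among genes called at least 2-fold higher 84 of 228 did (36.8%), among those at least 2-fold lower 42 of 230 (18.3%), and among all genes tested 2745 of 10922 (25.1%). The median GC content of these promoters was 64.3% in HIF targets, 61.0% in genes at least 2-fold higher, 58.2% in genes at least 2-fold lower and 61.0% in all genes. Kdm3a, Vegfa and Sry had no ACGTG in this window, and Tfrc had 1. Only ACGTG was searched, so other forms of the response element are not covered.

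Genes of glucose uptake and glycolysis rose along the whole chain of enzymes. Of 22 genes 17 rose and 1 fell, with a median of 2.02. Their summed level was 16735, 16888 and 16945 TPM in Dfo XY, against 4955, 4773 and 6133 TPM in control XY. The transporters Slc2a1 and Slc2a3 rose by 3.65 ± 0.18 and 3.12 ± 0.29, while Slc2a4, the transporter of muscle and fat, was at -0.41 ± 0.22 and was not called. Of the hexokinases, Hk2 had 225, 237 and 186 TPM in Dfo XY and 26.7, 25.6 and 43.4 TPM in control XY, and Hk1 had 90.4, 78.0 and 78.3 TPM in Dfo XY and 37.0, 42.8 and 41.1 TPM in control XY. Hk2 thus lay below Hk1 in 2 of the 3 control libraries and above it in all Dfo libraries, with rises of 2.75 ± 0.19 and 1.01 ± 0.11. Among the phosphofructokinases Pfkl and Pfkp rose by 2.79 ± 0.19 and 2.70 ± 0.20, and Pfkm, the muscle form, was at -0.20 ± 0.11. Pfkfb3, which makes the sugar phosphate that activates this step, rose by 3.19 ± 0.16.

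At the last step the isozymes went different ways. Ldha, which favours making lactate, had 1268, 1271 and 1673 TPM in Dfo XY and 161, 139 and 260.2 TPM in control XY. Ldhb, which favours the reverse reaction, had 437, 489 and 607 TPM in Dfo XY and 862, 955 and 1362 TPM in control XY. Ldha was thus the lower of the 2 in every control library and the higher in every Dfo library, with a rise of 2.94 ± 0.21 and a fall of 1.04 ± 0.16 for Ldhb. The Ldhb call ended without Dfo XY replicates 1 and 2 (limma, adjusted p = 0.0641). The lactate exporter Slc16a3 had 175, 187 and 196 TPM in Dfo XY and 16.9, 18.1 and 24.5 TPM in control XY, a rise of 3.18 ± 0.17, and Slc16a1, a related transporter, was not called at 0.37 ± 0.16 (limma, adjusted p = 0.0309 with median-of-ratios scaling and 0.0477 with quantile normalization). Gapdh, often used as a reference gene, had 4709.9, 4782 and 3752 TPM in Dfo XY and 1669.8, 1527 and 1605 TPM in control XY, and so was 2.76-fold higher by its mean.

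**Figure D3:**
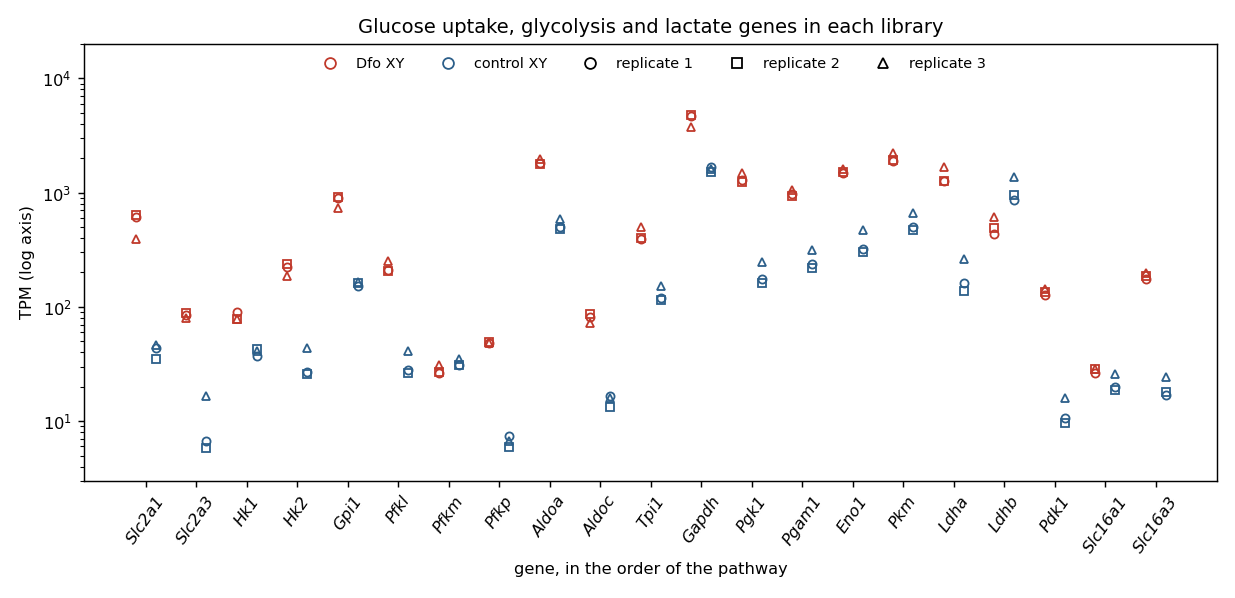
TPM on a log axis of genes of glucose uptake, glycolysis and lactate handling, in the order of the pathway, in the 3 Dfo XY (red) and 3 control XY (blue) libraries, with the replicate number as the symbol. All 3 Dfo libraries lie above the controls for most genes, the exceptions being Pfkm and Ldhb, which lie lower. Hk2 and Ldha, at 186 to 237 and 1268 to 1673 TPM in Dfo XY, pass their partners Hk1 and Ldhb there.

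Genes downstream of pyruvate fell in part, and kinases that block its entry rose. Pdk1, the kinase that shuts the pyruvate dehydrogenase complex, had 126, 134 and 143 TPM in Dfo XY and 10.6, 9.66 and 16.0 TPM in control XY. This was a rise of 3.40 ± 0.22 with no overlap. Of 30 genes of the complex and the citric acid cycle 3 rose and 7 fell (median -0.23). These were 10.0% and 23.3%, against 5.69% and 12.3% of all genes. The 3 that rose were all such kinases, Pdk1, Pdk3 and Pdk4, of which Pdk3 and Pdk4 lost their calls in several alternatives. Those that fell included Sdhb, an iron-sulfur subunit of succinate dehydrogenase (-0.66 ± 0.11), Suclg2 (-0.79 ± 0.12) and Ogdh (-0.55 ± 0.12). The 7 lower calls were 4 under median-of-ratios scaling, 3 without Dfo XY replicates 1 and 2, where 1 gene rose, and 13 with the replicate block.

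Nuclear genes of the respiratory chain were lower by small amounts. Of 76, 33 fell (43.4%, against 12.3% of all genes) and 43 did not pass the test, with a median of -0.39. Ndufb7, a subunit of complex I, had 124, 116 and 117 TPM in Dfo XY and 214, 204 and 229 TPM in control XY, and Cox6c, of cytochrome oxidase, had 1167, 1128 and 1085 TPM in Dfo XY and 1819, 1949 and 1975 TPM in control XY. The groups were apart for both, with falls of 0.85 ± 0.08 and 0.76 ± 0.08, and Ndufa5 of complex I fell by 0.95 ± 0.11. The count depended on the scaling. It was 15 with median-of-ratios scaling, 24 with quantile normalization and 21 without the 50 most abundant genes, and it was 14 without Dfo XY replicates 1 and 2 and 54 with the replicate block. Ndufa5, Ndufb7 and Cox6c were among the 8 that fell in every alternative.

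Of 21 genes of iron handling 2 rose (9.52%, against 5.69% of all genes) and 3 fell (14.3%, against 12.3%), with a median of -0.04, so the shares were near those of all genes. Those that rose were Tfrc and Hmox1, which frees iron from haem. Hmox1 had 182, 177 and 153 TPM in Dfo XY and 39.6, 48.3 and 43.3 TPM in control XY, a rise of 1.94 ± 0.20. The ferritin genes Fth1 and Ftl1, which code for the iron store and which iron regulates mainly through translation, were at 0.02 ± 0.12 and 0.07 ± 0.11, with their signs changing in some alternatives. The exporter gene Slc40a1 was at -0.13 ± 0.15, the iron-sensing Ireb2 at -0.04 ± 0.11 and Aco1 at 0.07 ± 0.12. The 3 genes that fell, Slc11a2, Heph and Pcbp1, were not called without Dfo XY replicates 1 and 2.

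In haem synthesis and iron-sulfur assembly 10 of 29 genes fell (34.5%, against 12.3% of all genes) and 2 rose (6.90%, against 5.69%). The median was -0.32. Glrx5, which hands on iron-sulfur clusters, had 48.4, 43.6 and 43.0 TPM in Dfo XY and 72.6, 74.9 and 73.0 TPM in control XY, a fall of 0.70 ± 0.12. Nfs1, which supplies the sulfur, fell by 0.91 ± 0.20, and the haem enzyme gene Urod by 0.55 ± 0.11. Cpox, a later enzyme of haem synthesis, went the other way, with 39.1, 35.8 and 37.1 TPM in Dfo XY and 16.8, 19.0 and 17.4 TPM in control XY, a rise of 1.03 ± 0.12. Leaving out Dfo XY replicates 1 and 2, 4 genes fell and 1 rose.

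The JmjC and TET dioxygenases were listed with the AlkB-family RNA demethylases Alkbh5 and Fto. Of 31, 13 rose (41.9%, against 5.69% of all genes) and 1 fell (3.23%, against 12.3%), with a median of 0.22. Kdm3a and Jmjd6 had the largest rises of these, followed by Alkbh5 and Kdm4b. Jmjd6, a lysyl hydroxylase, had 158, 152 and 148 TPM in Dfo XY and 53.8, 50.1 and 45.7 TPM in control XY (1.60 ± 0.15). Alkbh5 had 134, 139.7 and 114 TPM in Dfo XY and 50.3, 49.0 and 51.6 TPM in control XY (1.34 ± 0.11). The groups did not overlap for either. Smaller rises were those of Kdm4b (1.26 ± 0.10), Kdm7a (0.92 ± 0.12), Kdm2a (0.79 ± 0.10), Kdm5b (0.62 ± 0.10) and Tet2 (0.73 ± 0.10). Kdm3b, the closest relative of Kdm3a, was at -0.02 ± 0.11 and Jmjd1c, the third of that family, was called at 0.34 ± 0.11, a call that leaving out any 1 library ended. The gene that fell was Jmjd8, which lies in the endoplasmic reticulum and is not known as a histone demethylase (-1.18 ± 0.19).

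Of 15 genes that place or read the opposing repressive mark on histone H3 4 fell (26.7%, against 12.3% of all genes). The other 11 did not pass the test, and the median was -0.31. Ehmt1 and Ehmt2, the enzymes that methylate the same lysine at Sry, were at -0.21 ± 0.12 and -0.31 ± 0.10 and were not called (limma, adjusted p = 0.255 and 0.0571). Ehmt2 was called lower with the replicate block (limma, adjusted p = 0.012), with the 6 libraries alone and no block (0.0312) and with quantile normalization (0.036). Ehmt1 was called lower without Dfo XY replicate 3 (limma, adjusted p = 0.0397). Atf7ip, a partner of the methyltransferase SETDB1, had 34.7, 35.6 and 28.5 TPM in Dfo XY and 88.8, 82.8 and 86.5 TPM in control XY, a fall of 1.37 ± 0.10 with no overlap. The other 3 that fell, Prdm16, Cbx3 and Suv39h1, lost their calls in several alternatives, and 2 genes fell with median-of-ratios scaling and 9 with the replicate block.

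Several stress responses rose beside the HIF targets. In the integrated stress response, in which the factor ATF4 turns on genes for amino acid supply, 26 of 35 genes rose and 9 did not pass the test, with a median of 1.31. Atf4 had 625, 686 and 525 TPM in Dfo XY and 226, 214 and 214 TPM in control XY, a rise of 1.48 ± 0.10. Ddit3, the factor CHOP downstream of it, had 236, 271 and 238 TPM in Dfo XY and 30.5, 31.8 and 38.5 TPM in control XY, a rise of 2.85 ± 0.22. Atf3, a further factor of the response, had 86.5, 98.1 and 81.1 TPM in Dfo XY and 8.88, 8.83 and 12.2 TPM in control XY, a rise of 3.04 ± 0.20. All Dfo libraries were above all controls for these genes. Trib3, an inhibitor of ATF4, rose by 3.36 ± 0.25, Chac1, which degrades glutathione, by 2.62 ± 0.33, Sesn2, which restrains mTOR, by 1.77 ± 0.15, and Ppp1r15a, which ends the block of translation, by 1.80 ± 0.11. Other ATF4 targets were not called, such as the serine synthesis gene Phgdh (-0.34 ± 0.14; limma, adjusted p = 0.0173 with the replicate block), the cystine transporter Slc7a11 (-0.05 ± 0.22) and the hormone gene Gdf15 (0.14 ± 0.36).

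The promoters of Atf3 and Chac1 are shown because they hold TGATGCAA, the element to which ATF4 and C/EBP factors bind. Length and source are as above, and capitals mark TGATGCAA or its reverse complement.
Atf3, chr1:191183284-191183583, minus strand: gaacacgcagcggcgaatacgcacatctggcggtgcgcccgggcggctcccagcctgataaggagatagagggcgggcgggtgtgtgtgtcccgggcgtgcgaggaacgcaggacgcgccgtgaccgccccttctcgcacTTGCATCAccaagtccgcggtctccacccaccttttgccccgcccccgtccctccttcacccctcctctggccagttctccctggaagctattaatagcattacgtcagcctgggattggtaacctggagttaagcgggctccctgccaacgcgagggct
Chac1, chr2:119350992-119351291, plus strand: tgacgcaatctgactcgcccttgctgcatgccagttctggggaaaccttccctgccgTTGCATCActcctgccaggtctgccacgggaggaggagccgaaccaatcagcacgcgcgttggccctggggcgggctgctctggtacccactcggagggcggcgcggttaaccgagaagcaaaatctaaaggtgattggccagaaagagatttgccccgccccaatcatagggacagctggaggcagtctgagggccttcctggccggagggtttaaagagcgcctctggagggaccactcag

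The match began 110 bases before the start in Atf3 and 193 bases before it in Chac1. Of the 29 genes of the list matched to a RefSeq promoter, 6 held these letters (20.7%), against 70 of 10922 among all genes tested (0.641%). The 6 were Atf3, Chac1, Slc7a11, Nupr1, Pycr1 and Fgf21, of which Slc7a11 and Pycr1 were not called, while the calls of Nupr1 and Fgf21 ended in several alternatives.

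Genes of protein folding and tRNA charging were raised in part. Of 22 genes of endoplasmic reticulum chaperones and the unfolded protein response 11 rose and 1 fell, with a median of 0.38. Herpud1, which helps to degrade misfolded proteins, had 121, 132 and 95.9 TPM in Dfo XY and 35.9, 29.1 and 32.4 TPM in control XY, a rise of 1.80 ± 0.17. The chaperone gene Hspa5 rose by 0.62 ± 0.10 and its partner Dnajb9 by 1.09 ± 0.14. Hyou1, Pdia4 and Dnajb11 were at 0.08, 0.13 and -0.09 and were not called. Pdia4 was called higher with median-of-ratios scaling (limma, adjusted p = 0.0432) and with quantile normalization (0.0322). The 11 were 17 with median-of-ratios scaling and 4 without Dfo XY replicates 1 and 2. Of 20 aminoacyl-tRNA synthetases, 8 rose and 2 fell, with Cars at 1.31 ± 0.12 and Iars and Gars at 0.81 ± 0.10 and 0.76 ± 0.11. None fell with median-of-ratios scaling, under which 11 rose, and 4 fell with the replicate block.

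**Figure D4:**
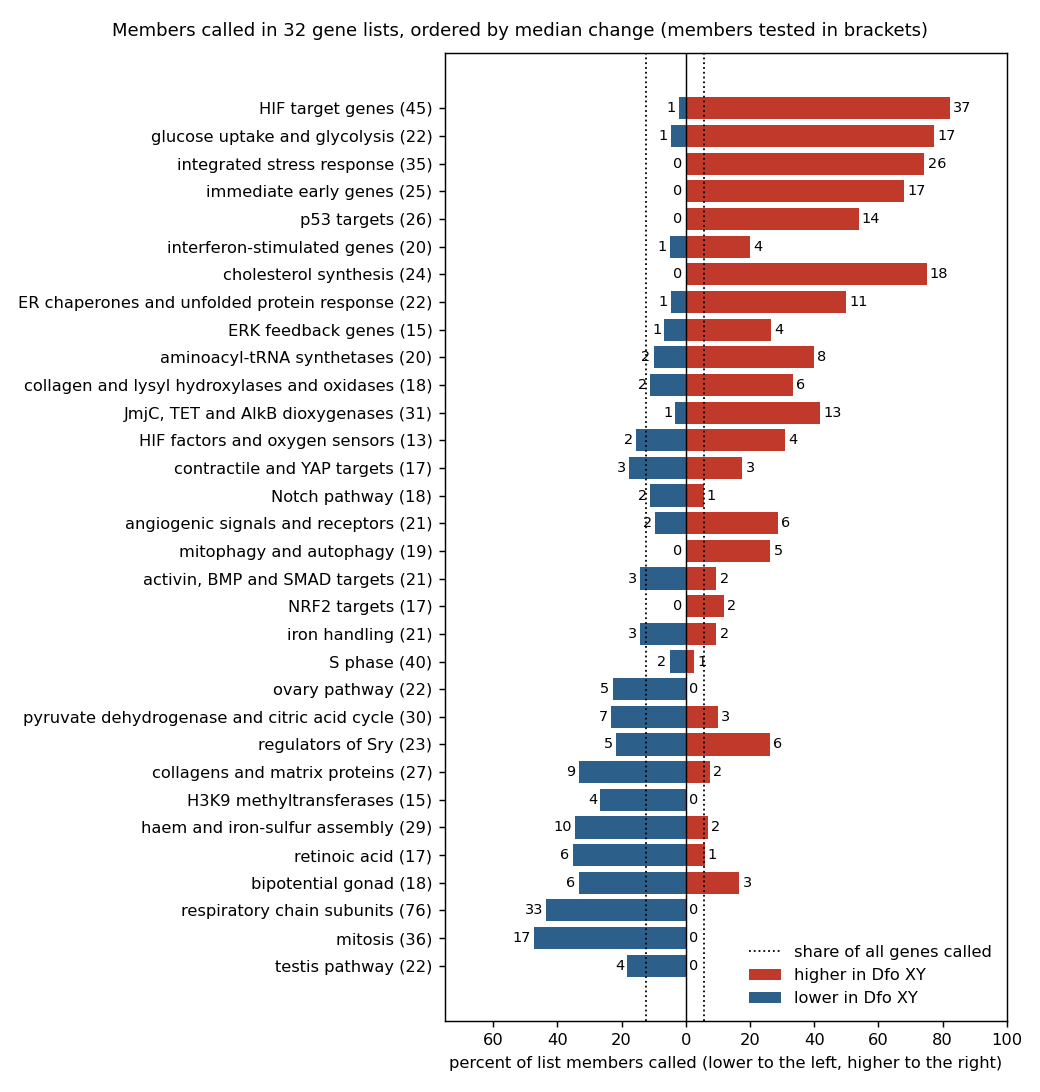
Percent of the members of 32 gene lists called higher (red, to the right) or lower (blue, to the left) in Dfo XY, with the number called beside each bar and the number tested in brackets, ordered by median log2 change. Dotted lines give the share of all genes called, 5.69% higher and 12.3% lower. HIF targets, glycolysis, the integrated stress response and immediate early genes stand at the top, and testis pathway, mitosis and respiratory chain genes at the bottom.

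Immediate early genes, which cells turn on within minutes of a stimulus, were all on the positive side. Of 25, 17 rose and 8 did not pass the test, with a median of 1.25. Ier3, an inhibitor of cell death, had 96.1, 91.7 and 68.3 TPM in Dfo XY and 6.20, 3.09 and 2.93 TPM in control XY, a rise of 4.13 ± 0.29. Junb had 111, 108 and 100.01 TPM in Dfo XY and 32.3, 35.0 and 21.2 TPM in control XY, a rise of 1.85 ± 0.18. Jun, Fos and Fosl2, which form the factor AP-1 with it, rose by 1.33 ± 0.13, 1.13 ± 0.15 and 1.67 ± 0.14, Myc by 1.43 ± 0.15 and Klf4 by 1.79 ± 0.25. AP-1 binds TGAGTCA, which stood in the promoters of 7.46% of genes at least 2-fold higher, 3.91% of those at least 2-fold lower and 3.48% of all genes. Respiratory chain genes, of which 33 fell and 0 rose, held it in 9.52% of promoters, and immediate early genes in 0 of 19. Of 15 feedback genes of the ERK kinase 4 rose (26.7%, against 5.69% of all genes) and 1 fell (6.67%, against 12.3%). Those that rose were Dusp4 (1.58 ± 0.16), Dusp5 (0.89 ± 0.13), Spry2 (0.93 ± 0.18) and Spred2 (0.71 ± 0.14). Fgfr3 fell, a call that several alternatives ended. Without Dfo XY replicates 1 and 2 the same 4 rises were called, and with the replicate block 8 rose and 2 fell.

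The genes of cholesterol synthesis rose by moderate and even amounts. Of 24, 18 rose and 6 did not pass the test, and all 24 changes were positive, with a median of 0.76. Cyp51, a sterol demethylase, had 264, 284 and 275 TPM in Dfo XY and 111, 110.3 and 125 TPM in control XY. The groups were apart, with a rise of 1.24 ± 0.08. Insig1, which senses sterols, rose by 1.13 ± 0.13, Lss by 1.05 ± 0.10 and Fdps by 0.79 ± 0.08. Leaving out Dfo XY replicates 1 and 2, 9 were called. The sterol element TCACNCCAC stood in 1 of 17 promoters of the list (5.88%) and in 1.07% of all promoters.

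Of 26 targets of p53, the factor that stops or kills damaged cells, 14 rose (53.8%, against 5.69% of all genes). The other 12 did not pass the test, and the median was 0.99. Cdkn1a, which stops the cell cycle, had 54.3, 47.3 and 87.9 TPM in Dfo XY and 23.6, 17.9 and 22.2 TPM in control XY. Pmaip1, which promotes cell death, had 15.4, 16.7 and 52.0 TPM in Dfo XY and 1.43, 1.09 and 3.48 TPM in control XY. In both, Dfo XY replicate 3 stood above the other Dfo libraries, and the same held for the cyclin gene Ccng1, at 82.1, 80.9 and 170.5 TPM in Dfo XY, against 34.4, 34.8 and 40.2 TPM in control XY. The rises were 1.49 ± 0.21 and 3.13 ± 0.43 for Cdkn1a and Pmaip1, and Bbc3, which also promotes cell death, and Mdm2, which restrains p53, rose by 1.97 ± 0.27 and 1.15 ± 0.16. Trp53 itself was at -0.21 ± 0.11 and was not called. Sesn2 and Btg2 are members of other lists as well.

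Cxcl10, a chemokine that attracts lymphocytes, had 19.4, 17.6 and 26.9 TPM in Dfo XY and 0.71, 0.70 and 0.72 TPM in control XY, and Ccl2, a chemokine that attracts monocytes, rose by 3.31 ± 0.39 with a mean of 25.8 ± 4.28 TPM in Dfo XY and 1.74 ± 0.72 TPM in control XY (SD, n = 3 each). Cxcl10 had a rise of 3.68 ± 0.32 and was kept by the filter through Dfo XY alone. Among 20 genes of the interferon response, which include Cxcl10, 4 rose and 1 fell, with a median of 0.82. Rsad2 and Ifit1, antiviral genes, rose by 1.94 ± 0.23 and 2.06 ± 0.30, and Bst2 fell by 1.07 ± 0.17. The number that rose was 9 with median-of-ratios scaling, 10 with quantile normalization and 10 with the replicate block. Macrophage markers summed to 194 to 342 TPM in Dfo XY and 141 to 232 TPM in control XY, with 0 of 15 called in limma (1 at an unadjusted p below 0.05), and their part in these changes was not tested. Of 17 targets of NRF2, the factor of the oxidant response, Hmox1 and Nfe2l2 rose (11.8%, against 5.69% of all genes). The other 15 did not pass the test, and with median-of-ratios scaling 5 of the 17 rose. Nfe2l2, the gene of NRF2 itself, was not called without Dfo XY replicates 1 and 2 (limma, adjusted p = 0.0822).

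Enzymes that finish collagen rose in part, and collagens fell in part. Of 18 hydroxylases, oxidases and helpers of collagen 6 rose and 2 fell (33.3% and 11.1%, against 5.69% and 12.3% of all genes). The median was 0.24, and 5 fell with the replicate block. P4ha1, a prolyl hydroxylase that needs iron, had 193, 196 and 233 TPM in Dfo XY and 21.5, 17.0 and 28.4 TPM in control XY, and Plod2, a lysyl hydroxylase that needs iron, had 180.5, 177 and 151 TPM in Dfo XY and 35.0, 40.4 and 31.5 TPM in control XY. These and P4ha2 did not overlap between groups, and the rises of P4ha1, Plod2 and the lysyl oxidase Loxl2 were 3.19 ± 0.20, 2.22 ± 0.12 and 1.75 ± 0.12. Loxl1, of the same family as Loxl2, fell by 0.83 ± 0.14. Of 27 collagens and matrix proteins 2 rose (7.41%, against 5.69% of all genes) and 9 fell (33.3%, against 12.3%), with a median of -0.27. Col1a1 had 112, 97.1 and 91.6 TPM in Dfo XY and 197, 216 and 169 TPM in control XY, and Col1a2 and Dcn fell by 0.93 ± 0.12 and 1.04 ± 0.21. Col3a1, Col4a1 and Sparc were not called, at -0.16, 0.21 and -0.01 (Col4a1 was with median-of-ratios scaling; limma, adjusted p = 0.0291). The number of rises was 8 with median-of-ratios scaling, while the 9 that fell were called under every scaling.

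In the testis list 4 of 22 fell (18.2%, against 12.3% of all genes) and 18 did not pass the test. The median was -0.51. Sry, Dmrt1, Sox13 and Gadd45g were the 4, of which Sry alone was called without Dfo XY replicates 1 and 2, and 11 fell with the replicate block. Gadd45g, an activator of the kinase pathway upstream of Sry, had 66.9, 85.4 and 80.1 TPM in Dfo XY and 115, 106 and 136 TPM in control XY (-0.61 ± 0.13; limma, adjusted p = 0.00557, and 0.0878 without those libraries). Map3k4, a kinase of that pathway, was at -0.08 ± 0.14. Sox9, which SRY turns on, had 53.4, 50.4 and 43.3 TPM in Dfo XY and 66.3, 68.1 and 46.8 TPM in control XY, with overlap and no call (-0.28 ± 0.14; limma, adjusted p = 0.198), but was called lower with the replicate block (adjusted p = 0.0487) and without control XY replicate 3 (0.0312). Fgf9 and Amh, which act later in the testis, had at most 4.15 TPM in any of the 6 libraries and were not called.

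In the list of genes that act on Sry, which holds Kdm3a, 6 of 23 rose and 5 fell, with a median of -0.26. These were 26.1% and 21.7%, against 5.69% and 12.3% of all genes. Beside Kdm3a, Cited2, a coactivator in the bipotential gonad and a HIF target, had 217, 232 and 114 TPM in Dfo XY and 92.3, 97.0 and 58.1 TPM in control XY. It rose by 1.14 ± 0.25, but replicate 3 was the lowest of each group and the call ended without Dfo XY replicates 1 and 2 (limma, adjusted p = 0.338). Insr and Igf1r, receptors of the insulin family that the XY gonad needs for Sry, rose by 0.61 ± 0.15 and 0.51 ± 0.12. Their calls ended with replicates 1 and 2 of each group averaged (limma, adjusted p = 0.128 and 0.0583). The Insr call ended in several further alternatives, among them without Dfo XY replicate 1, control XY replicate 1 or control XY replicate 2 (limma, adjusted p = 0.0531, 0.0581 and 0.069). Wt1 fell by 0.38 ± 0.08, with 139.8, 154 and 145 TPM in Dfo XY and 190.3, 191 and 189 TPM in control XY, and its call ended with median-of-ratios scaling (limma, adjusted p = 0.0826). Nr5a1 and Gata4 were not called, at -0.38 ± 0.14 and -0.34 ± 0.16. Nr5a1 was called lower with the replicate block (limma, adjusted p = 0.0174), with the 6 libraries alone and no block (0.0451) and with quantile normalization (0.0481). The numbers that rose and fell were 6 and 1 with median-of-ratios scaling, 2 and 0 without Dfo XY replicates 1 and 2 and 6 and 8 with the replicate block. Without Dfo XY replicates 1 and 2 the Wt1 call ended as well (limma, adjusted p = 0.0616). In the list of the bipotential gonad, which shares Wt1, Nr5a1 and Gata4, 3 of 18 rose and 6 fell, and these were 3 and 2 with median-of-ratios scaling and 1 and 0 without those libraries.

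Of 22 ovary pathway genes 5 fell (22.7%, against 12.3% of all genes) and 17 did not pass the test. The median was -0.14. With median-of-ratios scaling 3 rose and 3 fell. Rspo1, which activates WNT signalling, had 26.8, 28.8 and 25.5 TPM in Dfo XY and 61.3, 53.6 and 65.7 TPM in control XY, a fall of 1.12 ± 0.12. Wnt4, the main WNT gene of the ovary, had 83.8, 91.8 and 70.5 TPM in Dfo XY and 85.1, 83.6 and 92.8 TPM in control XY, which overlapped (-0.09 ± 0.11; limma, adjusted p = 0.609). Foxl2 and Fst were not called, at -0.53 ± 0.45 and -0.08 ± 0.21. The other genes that fell, Tcf7, Nkd1, Lef1 and Axin2, are targets or factors of WNT signalling whose calls ended in 1 or more alternatives, and 2 of the list were called lower without Dfo XY replicates 1 and 2.

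Retinoic acid is made and carried by a small set of proteins, and several of their genes were lower. Of 17 genes 6 fell (35.3%, against 12.3% of all genes) and 1 rose (5.88%, against 5.69%), with a median of -0.38. The 6 fell in every alternative. Crabp2, which carries retinoic acid to its receptor, had 24.7, 19.5 and 16.0 TPM in Dfo XY and 100.76, 91.2 and 72.5 TPM in control XY. Aldh1a2, which makes most of the retinoic acid of the embryo, had 112, 115 and 89.4 TPM in Dfo XY and 211, 235 and 252 TPM in control XY. The groups did not overlap for either gene, and Dfo XY replicate 3 was the lowest library each time. The falls were 2.09 ± 0.17 for Crabp2 and 1.14 ± 0.10 for Aldh1a2 (limma, adjusted p = 4.61e-06 and 1.53e-05). Crabp1, Aldh1a1 and the retinol receptor gene Stra6 fell by 1.45 ± 0.19, 1.63 ± 0.37 and 1.53 ± 0.30. Rdh11, a retinal reductase, rose by 1.08 ± 0.19, while the receptor genes Rara, Rarb and Rarg were at -0.24, 0.08 and -0.21 and Cyp26b1, which degrades retinoic acid in the gonad, at -0.50 ± 0.20, none of them called. With the replicate block Rara and Cyp26b1 were called lower (limma, adjusted p = 0.0481 and 0.0156), and Cyp26b1 also without control XY replicate 3 (0.0455).

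Aldh1a2 and Rspo1 are also markers of the coelomic epithelium, the surface layer from which gonadal cells arise. Of 10 such markers measured 6 fell (60.0%, against 12.3% of all genes) and 4 did not pass the test, with a median of -1.03. Their summed level was 374, 377 and 285 TPM in Dfo XY and 533, 553 and 654 TPM in control XY, with no overlap. Upk3b, a protein of the surface layer, had 17.6, 15.9 and 18.4 TPM in Dfo XY and 35.6, 34.5 and 57.1 TPM in control XY, a fall of 1.21 ± 0.19, and Krt7 fell by 1.58 ± 0.27. The keratins Krt8, Krt18 and Krt19 were not called, though Krt18 was lower without Dfo XY replicates 1 and 2 (limma, adjusted p = 0.00739) and Krt19 higher with median-of-ratios scaling (0.0387), and Msln did not reach the filter. The part of a change in this layer in the falls of Sry and the retinoic acid genes was not tested.

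Markers of further cell types moved less evenly. Of all genes, 5.69% were called higher and 12.3% lower, and no test compared the marker lists with these shares. Called lower were 28.6% of neural, 35.3% of mesenchyme, 16.7% of germ cell, 23.1% of mesonephric and 6.25% of endothelial markers. Called higher were 7.14% of neural, 8.33% of germ cell and 12.5% of endothelial markers. The germ cell shares were thus near those of all genes. Of 14 neural markers 4 fell and 1 rose (2 and 0 without Dfo XY replicates 1 and 2), with sums of 170 to 198 TPM in Dfo XY and 237 to 334 TPM in control XY. The neuronal tubulin Tubb3 fell by 1.79 ± 0.37, whereas Th, an enzyme of catecholamine synthesis that HIF is known to control, was called higher at 1.63 ± 0.43, a call that some alternatives ended. Of 17 mesenchyme markers 6 fell, with sums of 856 to 1005 TPM in Dfo XY and 1127 to 1179 TPM in control XY. Of 12 germ cell markers 2 fell and 1 rose, and the sums, most of which came from Ifitm1 and Ifitm3, were 237 to 269 TPM in Dfo XY and 433 to 547 TPM in control XY. Of 13 mesonephric markers 3 fell (1 with median-of-ratios scaling and 6 without Dfo XY replicates 1 and 2), with sums of 86.1 to 164 TPM in Dfo XY and 188 to 215 TPM in control XY. Endothelial sums overlapped, at 209 to 298 TPM in Dfo XY and 167 to 295 TPM in control XY, with 2 called higher and 1 lower of 16, and 0 higher without Dfo XY replicates 1 and 2. Red cell sums overlapped as well, at 1389 to 3222 TPM in Dfo XY and 331 to 2541 TPM in control XY, with 0 of 10 called in limma (1 at an unadjusted p below 0.05). Steroidogenic markers summed to 158 to 208 TPM in Dfo XY and 196 to 205 TPM in control XY, with 1 called higher and 2 lower of 10, and Cyp17a1, Cyp11b1, Mrap and Lhcgr did not reach the filter. With the replicate block 10 neural, 10 mesenchyme and 6 germ cell markers were lower. The part of these cells in the other results was not tested.

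**Figure D5:**
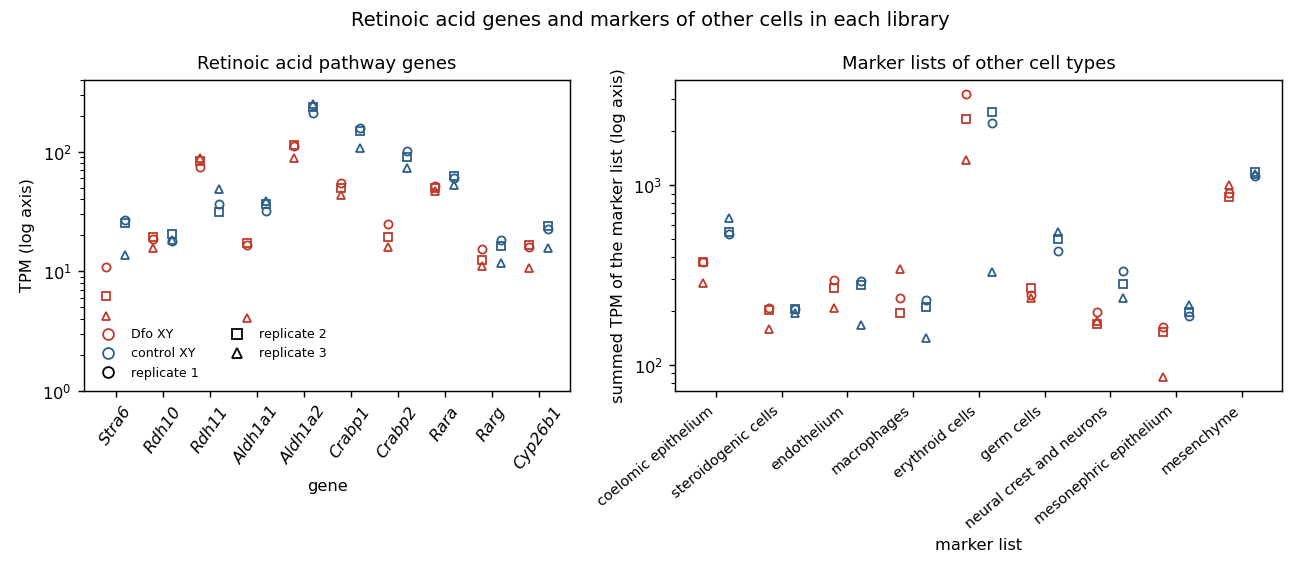
Left, TPM on a log axis of retinoic acid genes, and right, summed TPM on a log axis of the marker lists of other cell types, in the 3 Dfo XY (red) and 3 control XY (blue) libraries, with the replicate number as the symbol. Crabp1, Crabp2, Aldh1a1, Aldh1a2 and Stra6 lie lower in every Dfo library. The sums of coelomic epithelium, germ cell, neural, mesonephric and mesenchyme markers are lower in Dfo XY without overlap, and those of red cells and endothelium overlap.

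Of 21 angiogenic signals and receptors 6 rose and 2 fell, with a median of 0.09, and Vegfa, Adm and the ephrin gene Efnb2 (0.56 ± 0.11) were the 3 that also rose without Dfo XY replicates 1 and 2. The VEGF receptor gene Kdr had 29.8, 28.9 and 23.9 TPM in Dfo XY and 28.0, 26.1 and 23.4 TPM in control XY, with overlap and no call. In this angiogenic list 28.6% rose and 9.52% fell, against 5.69% and 12.3% of all genes. Of 19 genes of mitophagy and autophagy 5 rose (26.3%, against 5.69% of all genes). Among them were Bnip3, Bnip3l and the autophagy receptor gene Sqstm1 (1.05 ± 0.14). Of 18 Notch genes 1 rose (5.56%) and 2 fell (11.1%), and with median-of-ratios scaling 4 rose. Of 21 targets of activin, BMP and SMAD 2 rose (9.52%) and 3 fell (14.3%), and with that scaling 6 rose. These shares were near the 5.69% and 12.3% of all genes. Skil, which restrains SMAD factors, rose by 0.77 ± 0.10.

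Of 36 genes of mitosis 17 fell (47.2%, against 12.3% of all genes) and 19 did not pass the test, with a median of -0.49. Ccnb2, a cyclin of mitosis, had 21.3, 18.3 and 14.2 TPM in Dfo XY and 55.6, 56.9 and 52.8 TPM in control XY, and Ube2c, which degrades cyclins, had 66.6, 60.7 and 64.8 TPM in Dfo XY and 142, 135 and 138 TPM in control XY. The groups did not overlap, with falls of 1.59 ± 0.20 and 1.10 ± 0.10, and Cenpf and Plk1 fell by 1.03 ± 0.15 and 0.83 ± 0.12. Cdk1, Aurkb and Top2a were not called, at -0.08, -0.01 and -0.23. Top2a was called lower with the replicate block (limma, adjusted p = 0.04) and without Dfo XY replicate 3 (0.0424). Ccnb2, Ube2c, Cenpf and Plk1 were the 4 called without Dfo XY replicates 1 and 2. Of 40 genes of DNA replication 1 rose (2.50%, against 5.69% of all genes) and 2 fell (5.0%, against 12.3%), with a median of -0.05, and Mcm3 and Rrm1 were at 0.06 and 0.02.

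Further large changes were outside these groups. Sprr1a, known for epithelia and for injured nerve, had 148, 167 and 50.2 TPM in Dfo XY and 4.05, 4.41 and 2.83 TPM in control XY, a rise of 4.53 ± 0.39. Adm2, a peptide of the adrenomedullin family, had 19.4, 26.4 and 13.5 TPM in Dfo XY and 1.85, 0.92 and 0.35 TPM in control XY, and Ciart, a repressor of the circadian clock, rose by 3.37 ± 0.36. Sprr1a was lower in Dfo XY replicate 3 than in the other Dfo libraries but still far above all controls. On the lower side, Ppp1r14a, an inhibitor of myosin phosphatase, had 8.34, 9.34 and 11.2 TPM in Dfo XY and 40.3, 38.2 and 41.6 TPM in control XY, a fall of 1.96 ± 0.16 with little spread in either group. Myl9, a myosin light chain, fell by 1.36 ± 0.12, whereas Ctgf, a target of the transcription cofactor YAP, rose by 1.70 ± 0.26. Of the 17 contractile genes and YAP targets to which these belong 3 rose and 3 fell, and 6 rose with median-of-ratios scaling. Each count of 3 was 17.6%, against 5.69% higher and 12.3% lower of all genes. Apoc1, Gstt2 and Hsd11b2, genes of lipid, glutathione and steroid metabolism, fell by 1.98 ± 0.39, 1.95 ± 0.37 and 1.91 ± 0.20.

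Genes at the edge of the TPM filter were many. The 1701 symbols with 1 TPM or more in a single library, just outside, had a median mean level of 0.432 TPM, and the 782 with 1 TPM or more in exactly 2, just inside, had 0.792 TPM. The 12292 genes with 1 TPM or more in all 6 libraries had 20.7 TPM. Of the genes kept, 126 had 1 TPM or more in no control XY library and 393 in no Dfo XY library. Such genes were kept through 1 group alone, and 26 of the 126 were called higher and 36 of the 393 lower, which carries no weight as support.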

How the data were processed

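RNA of NR5A1(+) cells was sequenced after SMART-Seq Stranded Kit library preparation, per the labels' protocols. The authors deposited 1 table of TPM per library; mm10, STAR 2.7.10b, RSEM and R 4.1.2 are named per the submitters' processing notes, while for RSEM's version and the annotation nothing is given in the sources used here. As TPM holds no depth, no counting error or floor can be given. From the deposited TPM, log2(TPM + 1) was computed for the 14556 genes at 1 TPM or more in at least 2 of the 6 XY culture libraries. One linear model with 5 groups over all 12 libraries was fitted with limma 3.58.1 (trend, R 4.3.3), and p-values were adjusted over all genes (Benjamini-Hochberg). A call is an adjusted p below 0.05. "Rose" and "fell" are used of called genes alone. Tables and figures were made with Python 3.11.15, pandas 2.3.3 and matplotlib 3.10.9, and the fit was tested on simulated data. A log2 change on this scale understates the change of low genes.

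The members and the 41 gene lists were chosen with earlier results of these data known. Named genes were the 15 largest changes each way among called genes with a mean of at least 5 TPM and no overlap, up to 4 called genes per list and direction, and a fixed set; further list members were named after their values were seen. Same-numbered Dfo XY and control XY libraries deviated together (correlations of 0.233, 0.128 and 0.357 over 10694 genes). Other pairs among replicates 1 and 2 gave 0.204 and 0.156. The data thus set replicate 3 apart but do not settle pairs within replicates 1 and 2. The replicate block assumes pairs by number, which no label gives. The 18 alternatives were other scalings, pseudocounts of 0.1 and 5, other filters, the 6 libraries alone with and without the replicate block, replicates 1 and 2 averaged, each library left out in turn, and both Dfo libraries with Xist left out. Gene positions on mm10 are from GENCODE, in which 23376 of 24411 symbols matched. Promoters are from RefSeq (GRCm38.p6), where those of chromosome 18 were left out and the first listed promoter was taken for each gene. With these, 10922 of 14556 genes had a promoter, and motifs were searched on both strands. Some genes of these lists are not reported here.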

Additional observations from a re-analysis of the deposited data

How the results depend on the processing

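Against 2616 calls, fits with 1 library left out gave 1582 (without Dfo XY replicate 2) to 2341 (without Dfo XY replicate 3). Higher calls numbered 531 to 731 and lower calls 1025 to 1674, and some were new. Without Dfo XY replicate 2, 550 higher and 1000 lower were among the calls reported. Without Dfo XY replicate 3, 635 higher and 1341 lower were. The fit with the replicate number as a block, which assumes pairs by number, gave 4339 (1301 higher, 3038 lower), and the same 6 libraries without it 2979. With replicates 1 and 2 of each group averaged there were 911 (331 higher, 580 lower), and without Dfo XY replicates 1 and 2, where the lone Dfo library is assumed to vary like the other groups, 925 (377 higher, 548 lower). Median-of-ratios scaling gave 1576 higher and 1069 lower, of which 828 and 1066 were among the calls reported, and quantile normalization gave 1356 higher, 827 of them among those reported. Of 240 called genes named or checked singly, 152 kept their calls and 0 turned direction in those of the 18 alternatives that held them. Direction turned for 9 genes, all uncalled. With median-of-ratios scaling the changes were 0.06 for Fst, 0.10 for Ireb2, 0.07 for Map3k4, 0.01 for Slc40a1 and 0.06 for Wnt4. Without the 50 most abundant genes they were 0.01 for Fst, 0.06 for Ireb2, 0.02 for Map3k4 and 0.01 for Wnt4, with quantile normalization 0.04 for Fst and without Rpph1 0.02 for Ireb2. Without Dfo XY replicates 1 and 2 they were 0.07 for Ehmt1, 0.12 for Foxl2, 0.39 for Fst, -0.10 for Ftl1 and 0.08 for Map3k4. With 1 library left out they ranged from -0.32 to 0.10 for Fst, -0.13 to 0.10 for Fth1, -0.05 to 0.15 for Ftl1, -0.12 to 0.03 for Ireb2, -0.17 to 0.02 for Map3k4 and -0.18 to 0.01 for Wnt4. The cause was not tested. Depth is unknown, so what it limits among genes near 1 TPM cannot be given.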
